A study of Mus musculus with 6 samples.

Results

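The salt-inducible kinases Sik1, Sik2 and Sik3 and the CREB-regulated transcription coactivators Crtc1, Crtc2 and Crtc3 were followed through the cell states of mouse lung tumours in which the kinase LKB1 had been lost or restored. These 6 genes were taken by symbol from the 31055 features of the deposited matrix, and all 6 were detected. LKB1, which is encoded by Stk11, phosphorylates and activates the SIKs. Active SIKs phosphorylate the CRTCs, and the phosphorylated CRTCs are held in the cytoplasm by 14-3-3 proteins. When SIK activity is low, or when the phosphatase calcineurin removes the phosphates, the CRTCs enter the nucleus and act with CREB on cAMP-response elements, and Sik1 is itself one of the genes that CREB switches on. The measurements here were of RNA, whereas the LKB1-SIK-CRTC relay works through phosphorylation, so they describe how much transcript of each part was present and not its activity.

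tdTomato-positive cells negative for CD45, CD31, F4/80 and Ter119 were sorted from lung tumours of 6 mice, 3 labelled NonRestored and 3 labelled Restored, and profiled by droplet single-cell sequencing of transcript 3′ ends. All 6 mice carried Lkb1XTR/XTR and Rosa26LSL-tdTomato, so that Cre delivered to the lung by lentivirus switched on tdTomato and flipped a gene trap into Lkb1 in the infected cells. The trap carries GFP, so GFP transcript marks a trapped allele, and deletion of the trap by tamoxifen-activated FLPo-ERT2 brings back full-length Stk11. The 3 Restored mice carried FLPo-ERT2 and received tamoxifen, in doses of 4 mg, for the last 2 weeks, after 20 weeks of tumour growth. Of the 3 NonRestored mice, 1 lacked FLPo-ERT2 and received tamoxifen, 1 lacked it and received vehicle, and 1 carried it and received vehicle. There were 4 males and 2 females, and the ages of the mice are not given in the labels. Every mouse, control or not, had its tumours started with Lkb1 trapped, and the NonRestored group mixed genotypes and treatments with 1 mouse of each.

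The matrix pooled the libraries with no map from cells to mice, so cells were compared as 1 sample, no test between mice could be run, and every interval given is a 95% interval that covers counting error only. Of 16017 cells, 12183 had at least 500 detected genes and at most 20% mitochondrial UMIs (unique molecular identifiers, each standing for 1 captured transcript), with a median of 19348 UMIs per cell. Cells were gated by UMIs per 10000 of their own total. The ATII gate (alveolar type II; Sftpc at least 500, Hopx under 2, Krt8 plus Krt18 under 50) held 6975 cells, the ATI gate (alveolar type I; Hopx at least 15, keratins under 50) 956, and the keratin-high gate (Krt8 plus Krt18 at least 50) 1183, while 3069 cells met none of them. With the genes that set the gates left out, 11 of 11 ATII markers were highest in the ATII gate, 10 of 10 ATI markers in the ATI gate and 5 of 6 transitional markers in the keratin-high gate. Cells gated as fibroblast (240), endothelial (128) or myeloid (78) served as a reference outside the neoplastic lineage, and 12 of them lay inside the 3 gates. Median depth differed, at 21660 UMIs in the ATII gate, 11796.5 in the ATI gate and 23490 in the keratin-high gate.

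By gene models of GENCODE M21 (GRCm38, the assembly also called mm10), Sik1 (ENSMUSG00000024042) lies on chromosome 17 from 31844250 to 31855804, minus strand. Sik2 (ENSMUSG00000037112; chromosome 9, 50892801 to 51009073, minus strand) and Sik3 (ENSMUSG00000034135; chromosome 9, 46012820 to 46224194, plus strand) share a chromosome. Crtc1 (ENSMUSG00000003575) is on chromosome 8 from 70382355 to 70439579, minus strand, Crtc2 (ENSMUSG00000027936) on chromosome 3 from 90254163 to 90264125, plus strand, and Crtc3 (ENSMUSG00000030527) on chromosome 7 from 80586627 to 80688877, minus strand. The locus of Sik2 overlaps Ppp2r1b on the other strand, and that of Crtc3 overlaps Gm15880 on the other strand and Gm44931 on its own. The sources used here do not state whether counting used strand, and an overlap on the same strand could touch Crtc3 either way, so the Sik2 and Crtc3 counts are less certain than those of the other members.

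Because the CRTCs act through CREB, the letters of the cAMP-response element were sought on both strands in the promoter windows of RefSeq (GRCm38.p6), which run from 250 bases before each gene's start to 50 bases after it. Entries were found for 4 of the 6 genes, Sik2, Sik3, Crtc1 and Crtc3. None held the full palindrome TGACGTCA, which 1.79% of the 32851 windows hold. The core of the element, TGACG, which is also part of the palindrome and is found in 20.8% of windows, occurred 3 times upstream of Sik3, at 133, 116 and 57 bases before its start, and in Sik2 at 2 positions around the start itself, 1 base before it and 13 bases into the transcript. The Crtc1 and Crtc3 windows had none. The upstream bases of Sik3, the member that differed most between Stk11-positive and GFP-positive cells of the ATII gate, are printed for that reason, with the 3 core sites in capitals (chr9:46012570-46012819, plus strand).
Sik3 promoter: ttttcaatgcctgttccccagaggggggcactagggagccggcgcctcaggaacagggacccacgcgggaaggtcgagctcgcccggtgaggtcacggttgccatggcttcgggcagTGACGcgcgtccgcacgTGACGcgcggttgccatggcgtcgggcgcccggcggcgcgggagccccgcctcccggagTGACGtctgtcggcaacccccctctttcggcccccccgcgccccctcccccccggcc
These letters describe the sequence only, since no binding was measured in these cells.

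Sik1 was the most abundant of the 3 kinases in every epithelial gate and Sik2 the least. UMIs from transcript 3′ ends count transcripts whatever their length, so levels in CPM (counts per 1000000 UMIs) of a gate's summed UMIs can be set side by side between genes, apart from differences in capture. Sik1 stood at 50.7 CPM in the ATII gate (49.6 to 51.8; 8191 UMIs), 89.0 in the ATI gate (84.0 to 94.2; 1187 UMIs) and 84.9 in the keratin-high gate (81.7 to 88.2; 2604 UMIs). The ATI and keratin-high levels of Sik1 overlapped in their intervals, and both lay above the ATII level. Sik3 was likewise lowest in the ATII gate, with 18.7 CPM in the ATII gate (18.1 to 19.4), 25.8 in the ATI gate (23.1 to 28.7) and 26.9 in the keratin-high gate (25.1 to 28.8). Sik2 ran the other way between ATII and ATI cells, at 6.26 CPM (5.88 to 6.66) against 3.0 (2.14 to 4.08), with 5.15 in the keratin-high gate (4.38 to 6.02).

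The coactivators were lower and more even. Crtc3 was the most abundant, at 16.4, 17.8 and 18.4 CPM in the ATII, ATI and keratin-high gates, and its 3 intervals ran from 15.6 to 20.2 altogether. Crtc2 stood at 9.39, 10.4 and 9.62 CPM and Crtc1 at 4.40, 5.85 and 4.76 CPM in the same order. Neighbouring gates overlapped in their intervals for Crtc1, Crtc2 and Crtc3 alike. The largest difference among the coactivators, Crtc1 in ATI over ATII cells, was 1.33-fold (1.04 to 1.68) and rested on 78 UMIs in the ATI gate.

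**Figure D1:**
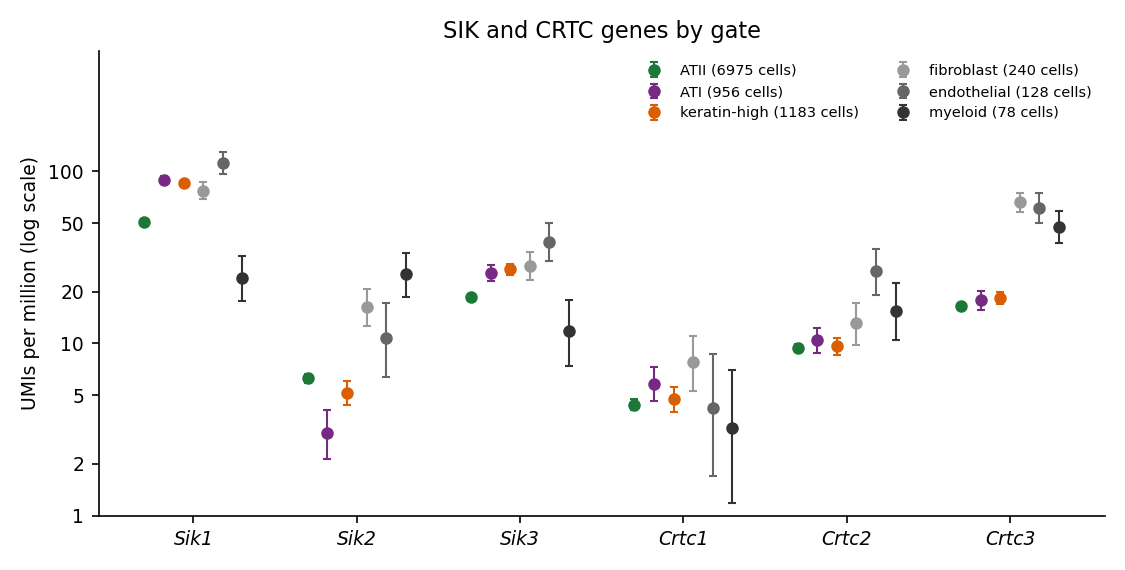
Levels of the 6 genes in CPM on a log axis, in the 3 epithelial gates and in reference fibroblast, endothelial and myeloid cells, with 95% Poisson intervals as bars. Sik1 and Sik3 sit lowest among the 3 epithelial gates in ATII cells (50.7 and 18.7), Sik2 sits lowest in ATI cells (3.0), and Crtc3 is higher in all 3 reference types (47.7 to 65.8) than in any epithelial gate.

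The reference cells differed from the epithelium in specific members. Crtc3 reached 65.8 CPM in fibroblast, 61.2 in endothelial and 47.7 in myeloid cells, and made up 75.9% of all CRTC UMIs in fibroblast cells against 54.4% in the ATII gate. Sik2 was highest in myeloid cells, at 25.2 CPM (18.5 to 33.5; 47 UMIs), where it took 41.2% of SIK UMIs. Sik1 was at its lowest there, at 24.1 CPM. GFP, which the recombined lineage alone should carry, was at 1.76 CPM in fibroblast (7 UMIs), 3.6 in endothelial (6 UMIs) and 3.75 in myeloid cells (7 UMIs), against 27.0 over all passing cells. Whether these UMIs came from free RNA, doublets or recombined cells was not tested. No cell type here is known to lack the 6 genes, so the share of cells with a UMI has no background share of its own.

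Within the SIK family the mix differed between gates. Sik1 supplied 67% of SIK UMIs in the ATII gate (66.1 to 67.8), 75.6% in the ATI gate (73.4 to 77.7) and 72.6% in the keratin-high gate (71.1 to 74.0). The Sik2 share was 8.27% (7.79 to 8.77), 2.55% (1.83 to 3.45) and 4.40% (3.76 to 5.13) in the same gates. These shares do not depend on the total of a gate, and they set the ATII gate apart as the epithelial state with most Sik2 relative to Sik1. The CRTC mix moved little, with Crtc3 between 52.2% and 56.2% and Crtc1 between 14.5% and 17.2% of CRTC UMIs. Summed over each family, the kinases stood at 75.7, 118 and 117 CPM and the coactivators at 30.2, 34.0 and 32.8 CPM in the ATII, ATI and keratin-high gates.

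Counted per cell, the members were sparse. A UMI of Sik1 was found in 58.1% of ATII, 59.1% of ATI and 71.5% of keratin-high cells. When each cell was thinned to 5000 UMIs, which left out 203 ATII, 115 ATI and 93 keratin-high cells, the shares were 22.9% (21.9 to 23.9), 36.0% (32.8 to 39.4) and 30.7% (28.0 to 33.6). Thinning thus put the ATII gate below the others for Sik1, as the CPM did. It keeps the composition of each cell, so it does not remove the differences with depth that are given below. Sik3 had thinned shares of 9.76%, 13.2% and 11.6%, from 33.4%, 27.9% and 43.2% before thinning. Crtc3 had 8.27%, 9.51% and 8.72%, from 29.5%, 20.8% and 34.1%. Sik2 (4.00%, 2.5% and 2.48%), Crtc1 (2.36%, 2.5% and 2.84%) and Crtc2 (4.92%, 4.16% and 5.41%) were found in few thinned cells, and the Sik2 shares of ATI and keratin-high cells carry no order, since the CPM put them apart. At least 1 SIK UMI was present in 32.9% of thinned ATII, 45.1% of ATI and 40.1% of keratin-high cells, and at least 1 CRTC UMI in 14.7%, 15.1% and 16.2%.

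ATI cells carried more Sik1 and less Sik2 than ATII cells. The ratio of ATI over ATII CPM was 1.75 for Sik1 (1.65 to 1.86) and 0.479 for Sik2 (0.340 to 0.657), so 1 member was at least 1.5-fold higher and 1 at least 1.5-fold lower. Among all features with at least 1 CPM over both gates, 29.2% were at least 1.5-fold higher and 12.5% at least 1.5-fold lower. Sik1 was therefore in a direction that many genes shared, while only 8.0% of features had a ratio below that of Sik2. Sik3 was 1.38 (1.23 to 1.54), Crtc2 1.11 (0.926 to 1.32) and Crtc3 1.08 (0.942 to 1.23). The median feature was itself 0.33 higher on the log2 scale in ATI cells, and the 12 ATII markers took 225630 CPM of the ATII gate and 65018 of the ATI gate. Relative to that median, Sik1 was 0.48 higher on the log2 scale, which is under 1.5-fold, as was its log2 ratio of 0.42 among cells of 10000 to 20000 UMIs. Sik2 was 1.39 lower than the median feature, Sik3 0.13 and Crtc1 0.08 higher, and Crtc2 and Crtc3 changed sign, to -0.18 and -0.22. Centring on the median also turned the split of all features past 1.5-fold from 70.0% higher to 40.9% higher.

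Keratin-high cells resembled ATI cells in Sik1 and Sik3 when set against ATII cells. These gates also differ in their share of cells with GFP or Stk11 transcript, and levels within each class are given further on. The keratin-high over ATII ratio was 1.67 for Sik1 (1.60 to 1.75), the only member past 1.5-fold, beside 32.0% of features at least 1.5-fold higher and 11.5% at least 1.5-fold lower. Sik3 was 1.44 (1.33 to 1.55) and Sik2 0.823 (0.692 to 0.974), while Crtc1 (1.08), Crtc2 (1.02) and Crtc3 (1.12; 1.02 to 1.23) were close to 1. The median feature was again 0.33 higher on the log2 scale. Relative to it Sik1 was 0.41 and Sik3 0.19 higher, Sik2 was 0.62 lower, and Crtc1, Crtc2 and Crtc3 changed sign, to -0.22, -0.30 and -0.17. With centring, 47.0% of the features past 1.5-fold were on the higher side, against 73.6% without. Sik1 was under 1.5-fold in 5 of 14 alternatives, at log2 ratios of 0.55 with each cell weighing the same, 0.45 without the 10 most abundant genes, 0.41 with centring, 0.48 after thinning to 5000 UMIs and 0.21 among cells of 10000 to 20000 UMIs. With centring (-0.62) and after thinning (-0.71) Sik2 was past 1.5-fold lower instead. Between keratin-high and ATI cells the members differed little, except that Sik2 was 1.72-fold higher in keratin-high cells (1.21 to 2.5; 158 and 40 UMIs), beside 15.5% of features higher and 12.2% lower by 1.5-fold or more. That Sik2 difference was past 1.5-fold in 13 of 14 alternatives but absent after thinning, at -0.03 on the log2 scale.

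The differences between gates changed with depth. In the ATII gate Sik1 was at 80.7 CPM in the quartile of cells with the fewest UMIs (median 9049) and at 42.1 in the quartile with the most (median 37291), and in the ATI gate at 112 and 77.1. The keratin-high quartiles lay between 79.8 and 88.1 CPM with no such slope. In a comparison added after these values were seen, ATI over ATII was 1.12 for Sik1 among cells of 5000 to 10000 UMIs (0.943 to 1.32), 1.34 among cells of 10000 to 20000 (1.21 to 1.47) and 1.77 among cells of 20000 to 40000 (1.59 to 1.97). Keratin-high over ATII was likewise 1.19 (0.877 to 1.57), 1.16 (1.03 to 1.29) and 1.85 (1.74 to 1.97). The higher Sik1 of both states was thus within counting error among shallow cells and large among deep ones. Sik3 in keratin-high over ATII cells was 1.38 (0.795 to 2.25), 1.15 (0.938 to 1.40) and 1.61 (1.45 to 1.79) in the same ranges. Sik2 was lower in ATI than in ATII cells in each of these 3 ranges, with ratios of 0.360, 0.377 and 0.437 and upper bounds of at most 0.770.

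**Figure D2:**
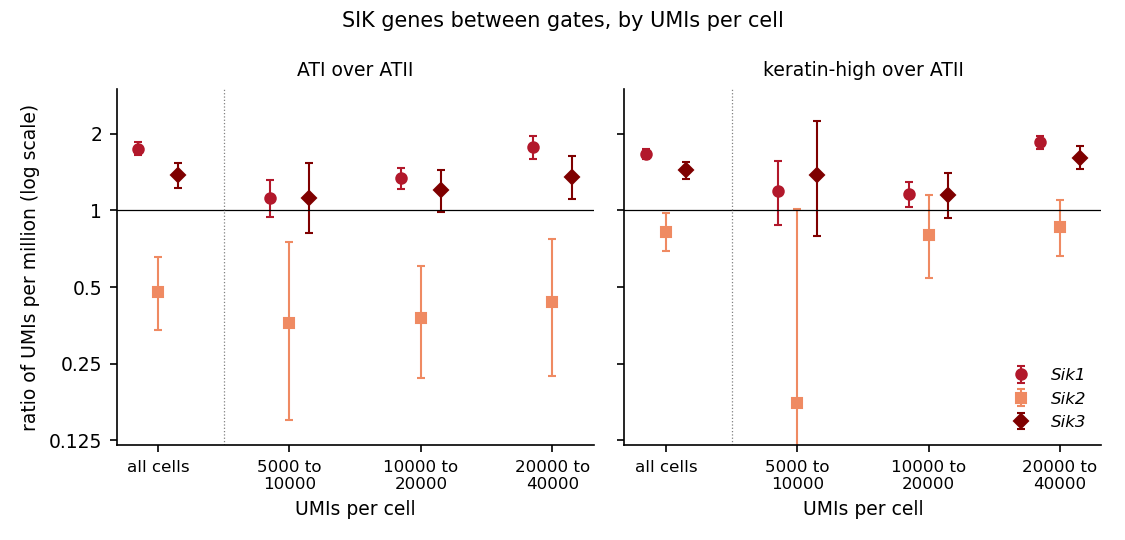
Ratio of CPM (log axis) of the 3 SIK genes in ATI over ATII cells (left) and keratin-high over ATII cells (right), for all cells and within 3 ranges of UMIs per cell, with 95% counting intervals (the lower bar of Sik2 at 5000 to 10000 UMIs on the right runs below the axis). Sik1 ratios are 1.12 and 1.19 among the shallowest cells and 1.77 and 1.85 among the deepest, while the ATI over ATII ratios of Sik2 stay between 0.360 and 0.437.

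RNA quality, read from the mitochondrial share, went with the levels of Sik1, Sik2, Crtc2 and Crtc3 in the ATII gate. From the quartile with the lowest mitochondrial share (median 2.58%) to the highest (10.4%), Sik1 was at 44.0 and 73.3 CPM, Sik2 at 4.85 and 9.26, Crtc2 at 8.03 and 14.7, and Crtc3 at 15.9 and 21.6. The highest quartile also had the fewest UMIs per cell, with a median of 10924.5. Sik3 (18.1 and 22.2) and Crtc1 (4.08 and 4.98) differed less between these quartiles. The part of RNA quality in the gate differences was not tested beyond the limits on mitochondrial share given among the alternatives.

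Sik1 followed the immediate early genes in every gate, whereas Sik3 did not. Immediate early genes such as Fos, Jun and Egr1 respond within minutes to stimuli, tissue dissociation among them, and the 15 genes of the list did not include Sik1. In the ATII gate Sik1 was at 35.5 CPM in the quartile of cells with the least immediate early UMIs (33.7 to 37.4) and at 46.2, 51.8 and 73.1 in the next 3 quartiles. In the ATI gate the quartiles stood at 58.5, 78.6, 99.4 and 129 CPM, and in the keratin-high gate at 54.2, 71.0, 99.7 and 116 CPM. Sik3 stayed between 18.0 and 20.6 CPM across the ATII quartiles and between 26.1 and 28.0 across the keratin-high quartiles. In the ATI gate it went both ways, at 28.1, 22.7, 22.4 and 29.9 CPM among cells with under 50, 50 to 100, 100 to 200 and 200 to 400 immediate early UMIs per 10000. Depth was not held equal across the quartiles, and its part in the Sik1 levels was not tested. Crtc2 went from 8.50 to 11 CPM across the ATII quartiles, and Sik2 was at 9.04 in the highest against 5.21 in the lowest. Among cells with under 50 immediate early UMIs per 10000, ATI over ATII was 1.82 (1.56 to 2.13) and keratin-high over ATII 1.52 (1.30 to 1.76), and among cells with 200 to 400 they were 1.80 (1.61 to 2.01) and 1.62 (1.49 to 1.76).

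**Figure D3:**
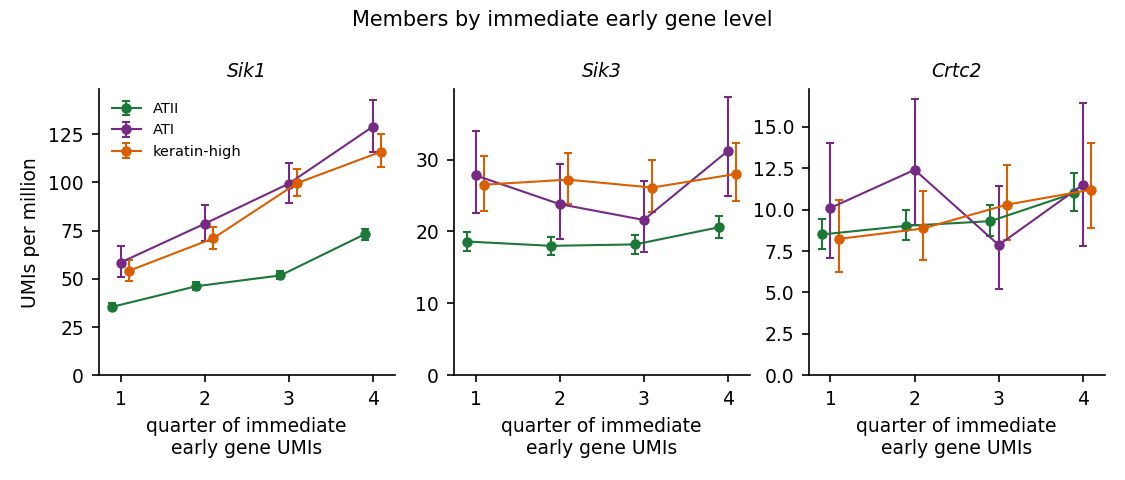
CPM of Sik1, Sik3 and Crtc2 in quartiles of cells ordered by summed immediate early gene UMIs, within each gate, with 95% Poisson intervals. Sik1 is higher in each successive quartile in all 3 gates (35.5 to 73.1 in ATII cells), whereas the Sik3 level of ATII cells stays between 18.0 and 20.6.

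The keratin and Sftpc gates cut through continuous ranges. Across cells outside the reference types, Sik1 was at 55.5 CPM where Krt8 plus Krt18 were under 2 per 10000, 49.7 at 2 to 5, 49.5 at 5 to 10, 61.4 at 10 to 20, 78.2 at 20 to 50, 83.5 at 50 to 100 and 88.2 at 100 or more. Sik3 went through 17.4, 18.2, 17.2, 22.2, 24.8, 26.5 and 28.0 CPM over the same bins, so neither was higher with more keratin below 10 per 10000. Within the Stk11-positive cells of the ATII gate (a Stk11 UMI and no GFP UMI; GFP-positive cells the reverse) there was no such slope, with Sik1 at 46.3, 44.7, 40.9 and 42.5 CPM and Sik3 at 12.3, 15.1, 14.5 and 14.1 in the bins under 2, 2 to 5, 5 to 10 and 10 to 50. GFP-positive cells of that gate had Sik1 at 65.1, 50.1, 48.4 and 60.1 CPM and Sik3 at 29.2, 21.4, 20.8 and 24.8 in these bins, the first of which held 22 such cells. Over all cells outside the reference types, the bin of 20 to 50 was near the bin of 50 to 100 for both kinases. That bin is not limited to the ATII gate. Stk11-positive and GFP-positive cells of the keratin-high gate had Sik1 at 69.4 and 89.6 CPM and Sik3 at 21.8 and 27.5. These levels were above those of the same class in the 10 to 50 bin of the ATII gate. Along Sftpc, in cells with few keratins and little Hopx, Sik1 was at 103 CPM where Sftpc was 250 to 500 per 10000 and at 36.4 where it was 2000 or more, and Sik3 at 31.6 and 13.2. Crtc3 showed a smaller drop between these bins, 25.1 to 13.5 CPM, and Crtc1 and Crtc2 went from 5.18 to 3.49 and from 9.84 to 7.15. Sftpc itself took a median of 2152 per 10000 UMIs in the last bin, which lowers the share left for every other gene there, and the cells of 250 to 500 were shallow, with a median of 6726 UMIs. Along Hopx, Sik2 was at 5.40 CPM in cells with 5 to 15 per 10000 and at 2.94 in those with 15 to 30, while Sik1 stood at 75.7 and 89.0.

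**Figure D4:**
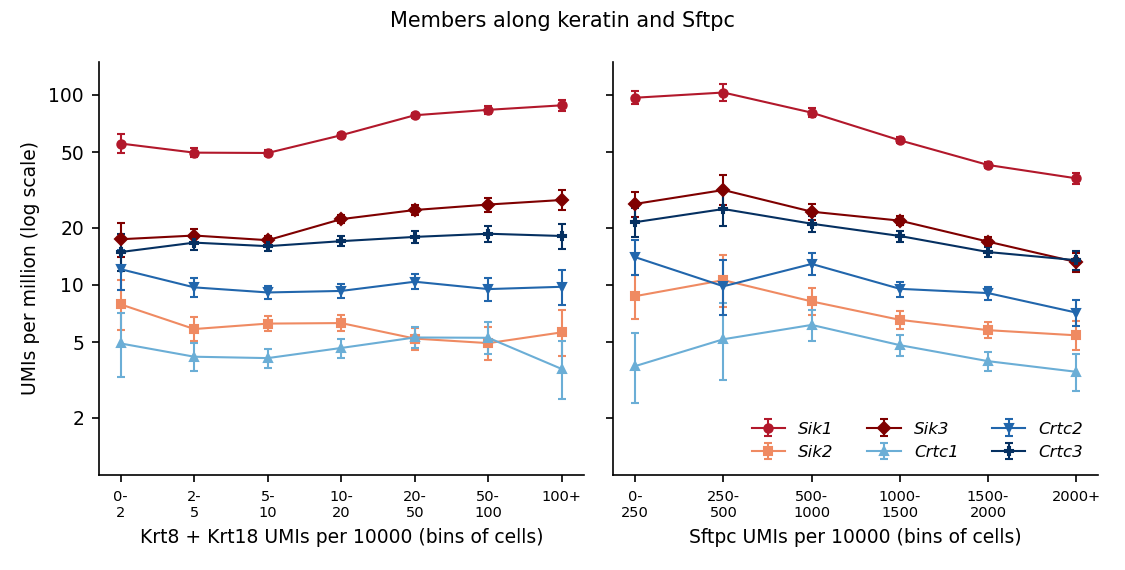
CPM (log axis) of the 6 genes in bins of cells ordered by Krt8 plus Krt18 (left; cells outside the reference types) and by Sftpc (right; those with few keratins and little Hopx), with 95% Poisson intervals. Sik1 and Sik3 are higher in bins with more keratin from 5 to 10 per 10000 upward (49.5 and 17.2 there, 88.2 and 28.0 in the last) and lower in bins with more Sftpc (36.4 and 13.2 in the last), while Crtc1 and Crtc2 have shallower slopes.

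Cells were then split by the state of the Lkb1 allele as the transcripts showed it. GFP-positive cells had at least 1 GFP UMI and no Stk11 UMI (3360 cells), Stk11-positive cells the reverse (3367), 29 cells had both and 5427 neither. The keratin-high gate was 54.3% GFP-positive and 13.9% Stk11-positive, against 25% and 33.7% of the ATII gate. The ratios between gates given above therefore mix the classes as well. Within GFP-positive cells, Sik3 was at 27.5 CPM in the keratin-high and 23.4 in the ATII gate, and Sik1 at 89.6 and 56.1. Within Stk11-positive cells, Sik3 was at 21.8 and 14.5 CPM in these gates, and Sik1 at 69.4 and 42.3. Over all cells, Sik1 was at 70.1 CPM in GFP-positive and 49.5 in Stk11-positive cells, a ratio of 0.706 (0.679 to 0.734), and Sik3 at 24.9 and 16.7, a ratio of 0.670 (0.627 to 0.716). Crtc1 was 0.772 (0.670 to 0.890), and Sik2 (0.976), Crtc2 (0.974) and Crtc3 (0.993) were near 1. No member passed 1.5-fold, beside 6.21% of features at least 1.5-fold higher and 11.0% at least 1.5-fold lower in Stk11-positive cells. The median feature was 0.21 lower on the log2 scale in Stk11-positive cells, and relative to it Sik2, Crtc2 and Crtc3 changed sign, to 0.17, 0.17 and 0.20, while 58.9% of the features past 1.5-fold were then on the higher side, against 36.1% before. The gates differ in their share of each reporter class, so these pooled values mix cell state with Lkb1 state, and the values within gates follow.

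Within the ATII gate, Stk11-positive cells had less Sik3 than GFP-positive cells. Sik3 stood at 14.5 CPM in the 2353 Stk11-positive cells (13.5 to 15.4; 906 UMIs) and at 23.4 in the 1742 GFP-positive cells (22.1 to 24.8; 1112 UMIs), a ratio of 0.618 (0.565 to 0.675). It was the only member past 1.5-fold, beside 2.92% of features at least 1.5-fold higher and 9.36% at least 1.5-fold lower, and 7.1% of features had a ratio below that of Sik3. Sik1 was at 42.3 against 56.1 CPM, a ratio of 0.755 (0.715 to 0.797), and Crtc1 at 3.83 against 5.08, also 0.755 (0.629 to 0.906). Sik2 was 0.836 (0.715 to 0.978), Crtc2 0.931 (0.821 to 1.06) and Crtc3 0.926 (0.842 to 1.02). The median feature was 0.18 lower on the log2 scale in Stk11-positive cells. Relative to it Sik3 was 0.51 lower, which is under 1.5-fold, as was its log2 ratio of -0.58 after thinning to 5000 UMIs, where Crtc1 (-0.95) was past it instead. Relative to the median feature, Sik1 and Crtc1 were both 0.22 lower, and Crtc2 and Crtc3 changed sign, to 0.08 and 0.07. Centring moved the split of features past 1.5-fold from 23.8% to 42.7% higher.

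Median depth was close in these classes of ATII cells, at 25078 UMIs for Stk11-positive and 25472.5 for GFP-positive cells, as was the summed level of immediate early genes, at 14792 and 14919 CPM. Keratins were not alike, since Krt8 stood at 353 CPM in Stk11-positive and 694 in GFP-positive ATII cells, Sftpc at 170480 and 135749, and the proliferation marker Mki67 at 8.14 and 26.6. Summed markers of fibroblast (57.6 and 21.9 CPM), endothelial (17.0 and 21.4) and myeloid cells (76.5 and 79.4) were low in both. A further split, added after these values were seen, compared the classes within 16 strata of ATII cells, by keratin level, immediate early genes, UMIs and mitochondrial share. The Sik3 ratio was under 1 in 16 of 16 strata, with an interval wholly under 1 in 15, and ran from 0.421 to 0.821. By keratin alone it was 0.421, 0.706, 0.698 and 0.570 from the lowest bin to the highest, and the part of keratin level in the Sik3 difference was not tested further. Sik1 was also under 1 in 16 of 16, with 14 intervals under 1 and ratios from 0.688 to 0.892. Crtc1 was under 1 in 15, with 4 intervals under 1, and Crtc2 in 16 with none. Sik2 was under 1 in 11, with 6 intervals under 1 and ratios from 0.539 to 1.44, and Crtc3 in 11, with 2 intervals under 1 and ratios from 0.810 to 1.35. The median feature was itself below 1 in every stratum, and relative to it Sik3 was lower in 16, by 0.12 to 1.23 on the log2 scale, Sik1 in 16, Crtc1 in 14, Sik2 in 10, Crtc2 in 7 and Crtc3 in 5. Strata made from the same cells overlap between the 4 measures and are no independent repeats. Stk11-positive and GFP-positive cells may come from different mice, so the Lkb1 state and the mouse cannot be told apart here.

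The level of Sik3 did not follow the number of reporter UMIs. ATII cells with 1, 2, 3 to 4, and 5 or more GFP UMIs had Sik3 levels of 24.0, 22.0, 23.6 and 24.8 CPM. With the same numbers of Stk11 UMIs they had 15.1, 14.1, 13.2 and 15.7 CPM. Cells with neither transcript lay between, at 19.7 CPM, and were shallower, with a median of 16251 UMIs. Every Stk11 bin was below every GFP bin for Sik3.

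The other gates showed smaller or less certain differences. In the ATI gate no member passed 1.5-fold, beside 7.15% of features higher and 11.6% lower by that fold, and all 6 intervals included 1. Sik1 was at 85.7 CPM in 266 Stk11-positive cells and 91.9 in 242 GFP-positive cells (0.932; 0.807 to 1.08), and Sik3 at 24.2 and 28.4 (0.853; 0.652 to 1.11). The Sik3 interval overlapped that of the ATII gate. The median feature was 0.11 lower on the log2 scale in these Stk11-positive cells, relative to it Sik1 (0.01) and Crtc1 (0.10) changed sign, and centring moved the split of features past 1.5-fold from 38.1% to 52.5% higher. In the keratin-high gate Sik1 was at 69.4 CPM in 165 Stk11-positive and 89.6 in 642 GFP-positive cells (0.774; 0.686 to 0.873), and Sik3 at 21.8 and 27.5 (0.792; 0.634 to 0.980). Crtc2 (1.24; 0.900 to 1.69) and Crtc3 (1.25; 0.993 to 1.57) were on the other side of 1 there. No member passed 1.5-fold in that gate either, beside 7.65% of features higher and 11.4% lower. Among cells in no gate, reference types left out, Sik1 was 0.776 (0.709 to 0.848), Sik3 0.881 (0.754 to 1.03) and Crtc1 0.618 (0.414 to 0.905). Whether the ratios differ between gates was not tested.

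**Figure D5:**
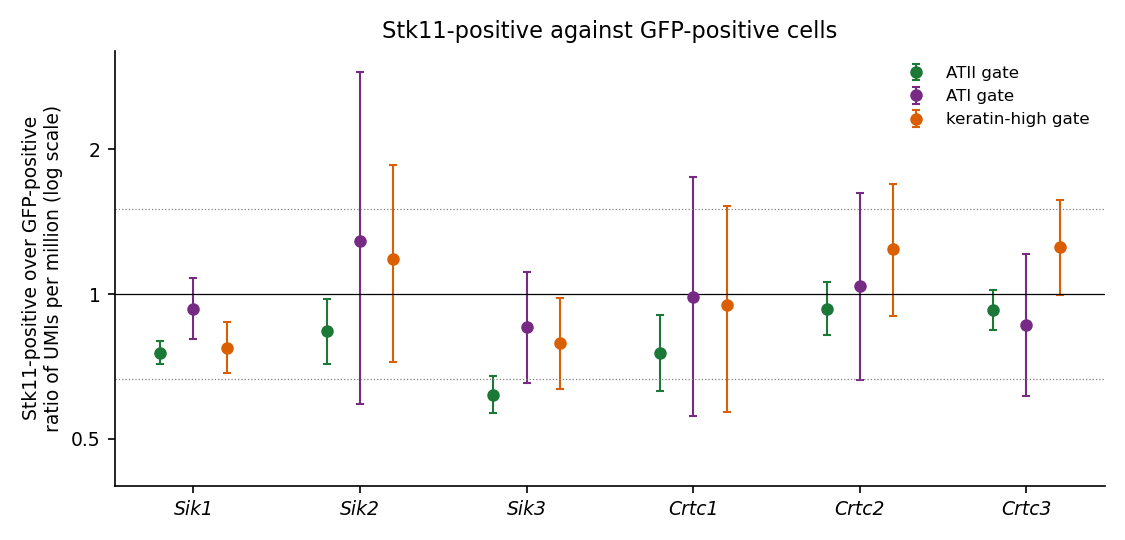
Ratio of CPM in Stk11-positive over GFP-positive cells (log axis) for each gene within the ATII, ATI and keratin-high gates, with 95% counting intervals; dotted lines mark 1.5-fold in either direction. Sik3 in the ATII gate, at 0.618, is the only point beyond a dotted line, and the ATI intervals all include 1.

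The lists of pathway genes were counted on the same scale, without a test. Upstream, the LKB1 complex (Stk11, with Strada, Stradb, Cab39 and Cab39l) had 2 of 5 genes at least 1.5-fold higher in ATI over ATII cells, Cab39 (1.93) and Strada (1.73), beside 29.2% of all features. Stk11 itself was at 24.3 CPM in the ATII, 31.8 in the ATI and 10.8 in the keratin-high gate. Of the other kinases that LKB1 activates, 1 of 8 tested was higher in ATI than in ATII cells, Mark3 (1.69), and 1 lower, Nuak1 (0.644), beside 29.2% and 12.5% of all features. In keratin-high cells 1 of 8 was lower, Prkaa2, an AMPK catalytic subunit, at 0.383 of its ATII level, beside 11.5% of all features lower. Between the reporter classes of the ATII gate 1 of 8 was higher in Stk11-positive cells, Prkaa2 at 1.68-fold (1.44 to 1.97), and 1 lower, Nuak1 at 0.627 (0.5 to 0.787), beside 2.92% and 9.36% of all features.

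The counts for the partners that hold or release the CRTCs are read against 29.2% of all features at least 1.5-fold higher in ATI over ATII cells and 32.0% in keratin-high over ATII cells. All 7 of the 14-3-3 genes were at least 1.5-fold higher in keratin-high than in ATII cells, with a list median of 1.13 on the log2 scale against 0.33 for all features, and Sfn, also a marker of the transitional state, stood at 752 against 72.0 CPM. Ywhah was 4.47-fold and Ywhag 2.44-fold higher. In ATI over ATII cells 3 of 7 passed, Ywhah (2.79), Ywhae (1.69) and Ywhaq (1.51). Calcineurin had 3 of 4 genes past 1.5-fold in keratin-high cells, namely Ppp3cc (2.90), Ppp3ca (2.19) and Ppp3r1 (1.57), and in ATI cells Ppp3ca alone, at 3.95. Of the PKA subunits, which carry the cAMP signal, Prkar2a was 2.57-fold and Prkar1a 2.16-fold higher in keratin-high cells, with 3 of 5 tested past 1.5-fold. The class IIa deacetylases, another group of SIK substrates, had 2 of 4 higher in ATI cells, Hdac5 (1.64) and Hdac7 (1.59), and 1 lower, Hdac9 (0.105; 4 UMIs), beside 12.5% of all features lower. CREB itself, Creb1, was 1.65-fold higher in ATI cells, the only one of 5 CREB factors and coactivators past 1.5-fold there.

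Genes known to respond to CREB and CRTC did not move as a block between gates. Of 14 tested, 4 were at least 1.5-fold higher and 4 lower in keratin-high than in ATII cells, beside 32.0% and 11.5% of all features, with a list median of 0.06 on the log2 scale. Areg, an EGFR ligand, was at 3671 against 833 CPM, while Ppargc1a was 0.312 and Gem 0.470 of the ATII level. In ATI over ATII cells 1 of 14 was higher, Dusp1 (2.02), and 2 lower, Gem (0.195) and Ppargc1a (0.297), beside 29.2% and 12.5% of all features. In the ATII gate, Stk11-positive over GFP-positive cells had 6 of 15 at least 1.5-fold lower and 1 higher, Gem (1.55), beside 9.36% lower and 2.92% higher of all features, with a list median of -0.50 against -0.18 for all features. Among the lower ones were Areg (0.453), Pde4b (0.449), a cAMP phosphodiesterase, and Nr4a1 (0.537), an orphan nuclear receptor. Gem went the other way in the keratin-high gate, at 0.476 (0.417 to 0.543). Crem, itself a CREB-family factor, was 0.615 in the ATII gate and 0.460 in the keratin-high gate. In the keratin-high gate 7 of 15 targets were lower and 1 higher, Inhba (10.8 against 0.302 CPM), beside 11.4% and 7.65% of all features. Fos (0.948) and Fosb (0.977), which are in the target list and the immediate early list, had ratios near 1. They, Gem, Nuak1 and Hdac9 were named after their values were seen, and Nr4a1, Dusp1 and Crem also stand in more than one of the lists.

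The genes most like each member were sought over 8 groups, the 3 gates and the cells of no gate, each split by reporter class, among 7844 genes with at least 10 CPM. Pearson's r was computed on log2(CPM + 1). The 8 points share libraries and differ in depth, so each r is a description only. The reference types were kept here among the cells of no gate, of which they made up 14.1%. With them, Crtc3 in the Stk11-positive cells of no gate was at 20.1 CPM, and without them at 15.2. Sik1 was most like Trmt2a (0.992), Otud6b (0.990) and Phospho2 (0.989), and Sik3 most like Zc3hc1 (0.980), Tgfbr2 (0.977) and Deaf1 (0.966). Among the members themselves, Sik1 and Sik3 had 0.904 and Crtc2 and Crtc3 0.773. Crtc1 had 0.742 with Sik1 and 0.689 with Sik3 but -0.03 with Crtc2 and -0.284 with Crtc3, and Sik2 had negative values with Sik1 (-0.674), Sik3 (-0.457) and Crtc1 (-0.752). The other pairs lay between 0.096 and 0.245. Sik2 was most like Il34 (0.965), Inpp4a (0.958) and Mt1 (0.956). For Crtc1 the nearest gene was Pex13 (0.968), for Crtc2 Acap2 (0.959) and for Crtc3 Atpaf1 (0.929).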

How the data were processed

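Sorted tumour cells of 6 mice were profiled with 10x Genomics 3′ v3 chemistry. The deposited matrix held raw UMI counts per feature and cell, which the authors made with Cell Ranger 3.0.2 against mm10, with GFP and tdTomato as added features. Whether libraries were brought to equal depth before joining is not given in the sources used here, and barcodes shared between libraries were not analysed. CPM, shares and ratios were computed here from UMIs summed over gates. Levels carry exact Poisson intervals, shares exact Clopper-Pearson binomial intervals and ratios exact conditional binomial intervals, all at 95%. Features with at least 1 CPM over both groups entered a comparison, and 1.5-fold was the limit for a call. No doublet caller was run, since the libraries were joined; leaving out the 5% deepest cells of each gate stood in its place. Total UMIs per passing cell ran from 671 to 125731, and the 6 genes together gave 31545 UMIs, or 0.0123% of all, so single-cell values are sparse.

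The 6 members were named in full. From lists of pathway genes, up to 3 genes past 1.5-fold with the largest log2 ratio and at least 5 CPM in either group were named per list and comparison, and for each member the 3 genes of highest Pearson's r, among genes with at least 10 CPM over all passing cells. Members, lists and gates were chosen with earlier results of these data known. Other mitochondrial and gene limits, weights, totals, gate limits, depths and reporter minimums were tried as alternatives. The ratio and its interval were tested on simulated data. Gene coordinates came from GENCODE M21, which held 99.6% of the feature IDs. Analyses used Python 3.11.15 with numpy 2.4.6, scipy 1.17.1, pandas 2.3.3 and matplotlib 3.10.9. A further allele that all 6 mice shared is not reported here.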

Additional observations from a re-analysis of the deposited data

How the results depend on the processing

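No paired analysis was possible because the matrix does not tie cells to mice, so replicates could not be left out or blocked either, and no result has a replicate check. Of 106 recomputed counts of members past 1.5-fold, 82 were within 1.5 times of the reported count. For ATI over ATII (reported 2), centring gave 1 and cells of 10000 to 20000 UMIs gave 1. For keratin-high over ATII (reported 1), equal weight per cell, totals without the 10 most abundant genes, and cells of 10000 to 20000 UMIs each gave 0, and doubled gate minimums gave 2. For keratin-high over ATI (reported 1), equal weight and doubled minimums gave 2 and thinning to 5000 UMIs gave 0, with the Sik2 log2 ratio turned from 0.78 to -0.026. For Stk11-positive over GFP-positive cells, all cells together (reported 0) gave 1 under a 10% mitochondrial limit, thinning, without the deepest cells, without reference cells, and in cells at or below the median of immediate early genes. In the ATII gate (reported 1) centring gave 0, while cells at or below that median and cells of 10000 to 20000 UMIs gave 2. In the ATI gate (reported 0) halved minimums and at least 2 reporter UMIs gave 1, cells of 10000 to 20000 UMIs 2 and thinning 3. In the keratin-high gate (reported 0) doubled minimums, thinning and cells of 10000 to 20000 UMIs gave 2.

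The cells of 10000 to 20000 UMIs, the depth and immediate early ranges and the strata were chosen after seeing the data. The causes of these shifts were not tested. Of 636 recomputed log2 ratios of single members, 542 stayed inside the counting interval of the reported value, and 68 had the other sign, 1 of them for a member reported past 1.5-fold, the Sik2 value above. The Sik3 log2 ratio in the ATII gate stayed below 0 under all 16 alternatives, from -0.77 to -0.51, but was under 1.5-fold with centring and, at -0.58, with thinning, which kept the count at 1 through Crtc1 (-0.95). For keratin-high over ATII, centring and thinning likewise kept the count at 1 through Sik2 and not Sik1. In the ATI gate, with 13 to 44 UMIs of Sik2, Crtc1 and Crtc2 per reporter class, small differences were not detectable.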
